A study of Homo sapiens with 6 samples.

Results

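Interferon-stimulated genes were followed as a set of 43 genes in HaCaT, a line of immortalized keratinocytes of human skin. The set was given as a list of gene symbols, and all 43 symbols were found in the deposited table of 20035 genes. Poly(A) RNA had been sequenced from 3 control libraries and 3 libraries of cells given palmatine, an alkaloid of several medicinal plants; all 6 carry the genotype label WT. The series describes stimulation with IL-17 before palmatine, but the treatment label of the controls reads none; whether they had IL-17, and the dose and duration of palmatine, are not stated. Nothing in the labels says that replicates are separate cultures, and the p-values therefore reflect a spread among libraries that may be technical.

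Interferon-stimulated genes form the transcriptional response of a cell to interferons. Type I and type III interferons act through the kinases JAK1 and TYK2 to activate ISGF3, a factor with the subunits STAT2 and IRF9 that binds the interferon-stimulated response element (ISRE) in the promoters of its targets, while interferon gamma acts through gamma-activated sites (GAS). In skin, keratinocytes make and answer interferons, and many of these genes are raised in psoriatic plaques.

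Many of the genes, though not all, share short sequence elements in their promoters. RefSeq promoter windows, from 250 bases before to 50 bases after each start (GRCh38.p14), were available for 36 of the 43 genes. The ISRE core was searched as GAAANNGAAA or its reverse complement TTTCNNTTTC, and the GAS core as the palindrome TTCNNNGAA, each on both strands and with overlapping matches allowed. The ISRE letters occurred for 24 of the 36 genes (66.7%), against 4.38% of all 27305 genes with a promoter window. GAS letters occurred for 13 of the 36 (36.1%), against 9.38% of all genes. Counted per window, 28 of 49 (57.1%) held ISRE letters and 14 of 49 (28.6%) GAS letters, against 3.57% and 7.66% of all 35116 windows. A match describes the letters in the window and does not show that a factor binds there.

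Stretches of 8 promoters are shown to illustrate how these elements look, 5′ to 3′ on the strand of the gene. Each lies upstream of the RefSeq start and touches no exon of GENCODE release 29, a reference gene annotation. Capitals mark the ISRE letters of matches that lie wholly inside the stretch, and for IRF1 the GAS letters. The IFI6 stretch begins inside a further match, from -115 to -106 relative to the start, whose end is left in lower case.
ISG15, chr1:1013369-1013414, plus strand: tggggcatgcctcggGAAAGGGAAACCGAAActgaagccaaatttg
IFIT1, chr10:89392492-89392544, plus strand: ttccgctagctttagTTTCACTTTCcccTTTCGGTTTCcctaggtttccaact
IFIT3, chr10:89332420-89332459, plus strand: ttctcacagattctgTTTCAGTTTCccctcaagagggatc
IFI44, chr1:78649756-78649795, plus strand: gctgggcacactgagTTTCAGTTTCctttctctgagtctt
IFI6, chr1:27672261-27672300, minus strand: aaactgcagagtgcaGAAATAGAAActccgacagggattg
HERC5, chr4:88457030-88457069, plus strand: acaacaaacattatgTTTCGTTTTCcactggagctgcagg
CXCL10, chr4:76023694-76023733, minus strand: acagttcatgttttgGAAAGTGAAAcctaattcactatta
IRF1, chr5:132490874-132490912, minus strand: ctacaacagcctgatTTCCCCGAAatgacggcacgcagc
In ISG15, 2 overlapping matches form a single run, and in IFIT1 a pair of matches is separated by 3 bases. The genes HERC5, IFI6, IFIH1 and IFIT5 held 3 matches in a single window each. IRF1, whose window held no ISRE letters, had the GAS letters instead.

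**Figure D1:**
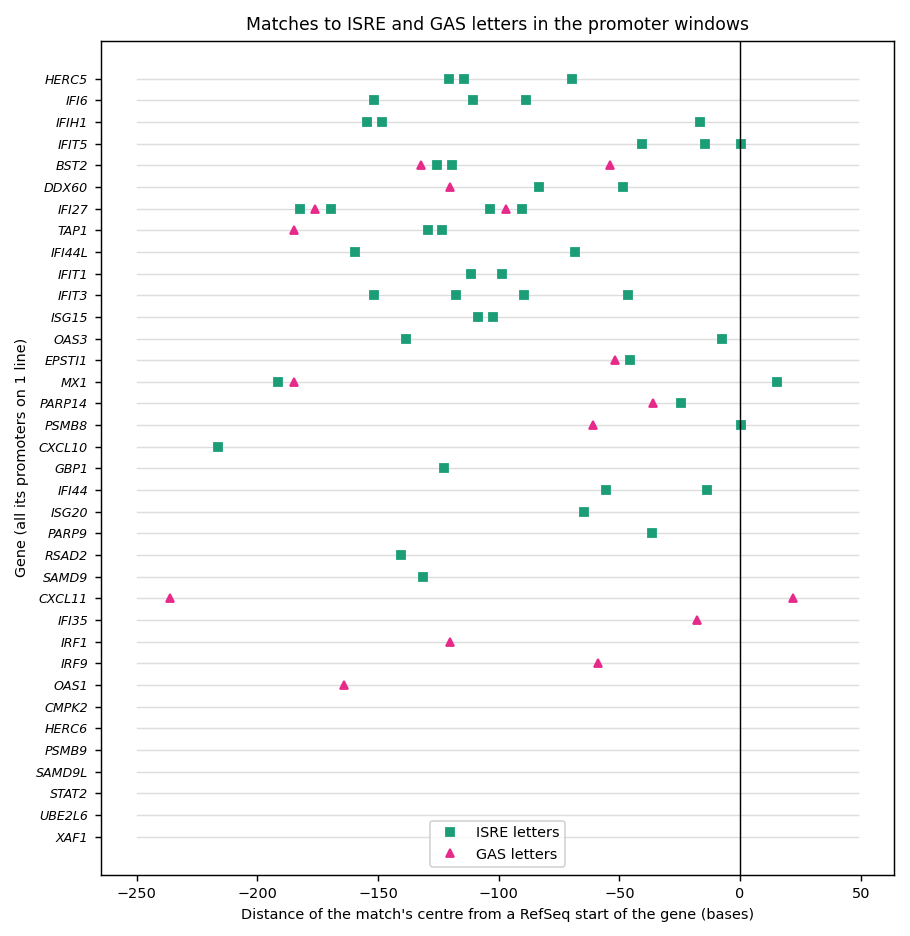
Distance in bases of each match to the ISRE letters (squares) or GAS letters (triangles), taken at its centre, from a RefSeq start, for the 36 interferon-stimulated genes with a promoter window; each grey line is a gene and pools its windows. ISRE letters were found for 24 genes, GAS letters for 13, both for 8 and neither for 7.

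Many of the genes are chromosomal neighbours. With members less than 100 kb apart counted as a run, 22 of the 43 lay in 9 runs. The largest holds IFIT2, IFIT3, IFIT1 and IFIT5 on chromosome 10 (89283694 to 89421605). OAS1, OAS3 and OAS2 lie side by side on chromosome 12 (112905856 to 113011723), and PSMB8, TAP1 and PSMB9 on chromosome 6 (32840717 to 32859851). These coordinates are those of the deposited table, which names no build; for 43 of 43 members they overlapped the GENCODE 29 (GRCh38) gene on the same strand.

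Total counts ran from 12908646 to 17218171 per library. Of 12356 genes that passed the count filter, edgeR called 5 at an adjusted p of 0.05, none of them an interferon-stimulated gene. Keratinocyte markers dominated, with 10 markers summing to between 10341 and 11076 CPM (the count scaled to a common library size) per library. Of 12 immune cell markers, IL3RA and CD14 passed the filter; the list summed to between 12.1 and 17.3 CPM in control and between 15.9 and 18.4 CPM with palmatine, with MS4A1, CD68 and CLEC4C at 0 counts. Of 12 fibroblast, melanocyte and endothelial markers 6 passed, with sums between 11 and 15.1 CPM and COL1A2, TYR and DCT at 0 counts. Fold changes of all genes followed gene length. In the shortest class, under 2500 bases in the deposited table, 19% of tested genes had positive log2 fold changes, and in the longest, over 10000 bases, 74.4%.

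The interferon-stimulated genes were transcribed in control and palmatine cells alike, at levels from under 1 CPM to over 300 CPM. All 43 passed the count filter. Together they summed to 3064 ± 79.7 CPM in control and 3075 ± 30.3 CPM with palmatine (SD, n = 3 per group). As a share of raw counts, without TMM factors, they made up 0.3 ± 0.00681% and 0.314 ± 0.00651% (SD, n = 3 per group). These shares did not overlap between the groups. Without TMM factors the median log2 fold change of all tested genes was 0.06. Measured per length as the authors' FPKM (counts scaled by gene length and by the library total), 37 had a mean of at least 1 and 19 a mean of at least 10, where 83% and 34% of all tested genes did. Of the 43, 27 lay above the tested genes' median of 5.74 FPKM and 6 within the top 10%.

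**Figure D2:**
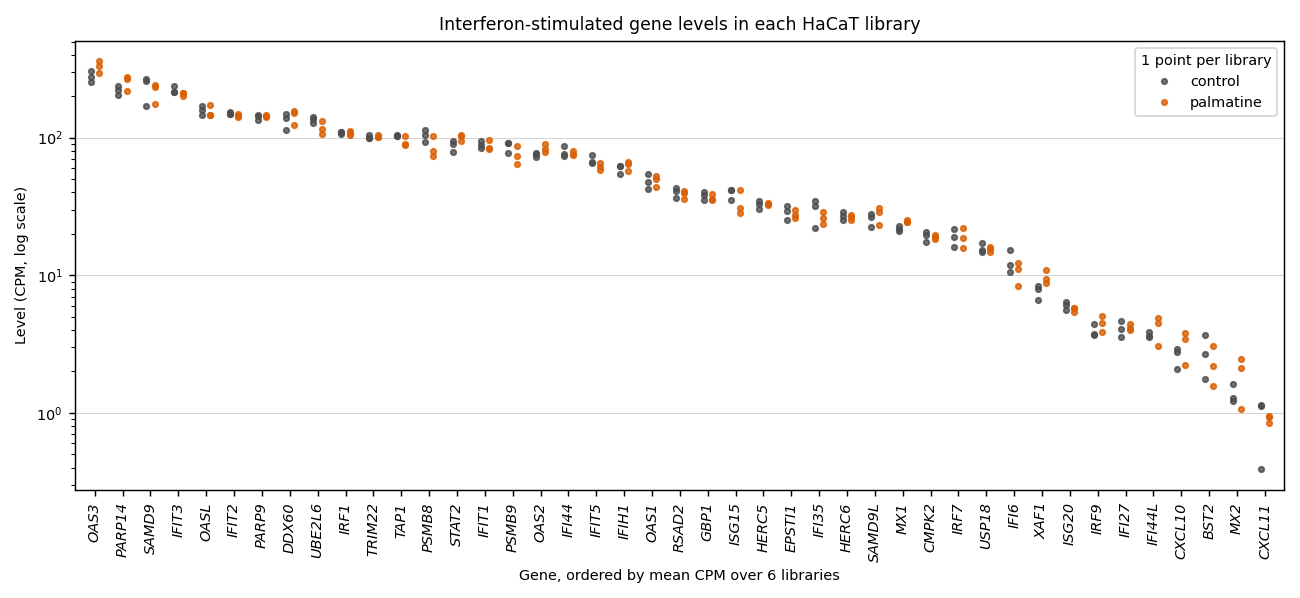
Level of the 43 interferon-stimulated genes in CPM (log axis), 1 point per library, grey for control and orange for palmatine, ordered by mean level. OAS3, PARP14, SAMD9 and IFIT3 are at the top, and MX2 and CXCL11 at the bottom; the groups overlap for all but 5 genes.

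By the deposited gene length, the highest level was that of UBE2L6, the E2 enzyme that passes the ubiquitin-like protein ISG15 to its substrates, at 61.4 FPKM on average over the 6 libraries. IFIT3, which stabilises the RNA-binding protein IFIT1, was at 42.3 FPKM and ISG15 at 42.0 FPKM. IFI44, an interferon-induced cytoplasmic protein, and IFIT2, an RNA-binding relative of IFIT1, followed at 38.1 and 34.0 FPKM. At the other end, MX2, a dynamin-like GTPase that restricts HIV, was at 0.113 FPKM, IFI44L, the paralogue of IFI44, at 0.338 FPKM, and CXCL11, a ligand of the chemokine receptor CXCR3, at 0.505 FPKM. The order, its top included, depends on the length used. The deposited gene length was over 2 times the longest GENCODE 29 transcript for 12 of the 43 members (27.9%), against 16.5% of tested genes, with ratios of 5.39 for OAS1 and 5.18 for MX1. With the longest GENCODE transcript in place of the deposited length, IFIT3 came first and UBE2L6 second (86 and 80.7 CPM per kilobase), OASL moved from rank 8 to 3 and IFIT2 from 5 to 8, and IFI44L and CXCL11 exchanged places at 41 and 42, with MX2 still last. OAS3 moved from rank 13 to 6, TRIM22 from 21 to 9 and OAS1 from 32 to 19 among the members.

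Palmatine and control cells were compared to see which of these transcripts differ. None of the 43 passed the threshold, either higher or lower (edgeR quasi-likelihood test, Benjamini-Hochberg adjustment over 12356 genes; lowest adjusted p among members 0.455). Over all tested genes 0.00% were called higher and 0.0405% lower. DESeq2 and limma-voom also called 0 members. At an unadjusted p under 0.05, edgeR gave 4 members higher (XAF1, OAS3, STAT2 and MX1) and 0 lower, against 5.13% of all tested genes higher, 4.69% lower and 9.82% in either direction. The log2 fold changes, palmatine against control, ran from -0.28 to 0.44 with a median of -0.02, beside a median of 0.00 for all tested genes; 19 were positive and 24 negative, and with library size alone, without TMM factors, 31 and 12, where the median of all genes was 0.06.

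Most of these differences had narrow intervals, which rest on the spread among these libraries that may be technical. They are those of the main fit, with no trend on gene length removed. The 95% interval of the log2 fold change lay within a 2-fold change either way for 42 of 43 members and within 1.5-fold for 36, against 94.9% and 79.4% of all tested genes. MX2 was the member whose interval reached beyond 2-fold, from -0.28 to 1.16. It was at 1.23, 1.63 and 1.28 CPM in control and 2.13, 2.48 and 1.06 CPM with palmatine, so that palmatine 3 was the lowest of all. The median coefficient of variation between replicates was 8.6% in control and 8.75% in palmatine libraries for the members, and 8.63% and 8.19% for all tested genes. The groups did not overlap for 5 members, 4 higher (OAS2, MX1, STAT2 and XAF1) and 1 lower (IFIT3), against 6.68% of tested genes higher and 5.71% lower.

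**Figure D3:**
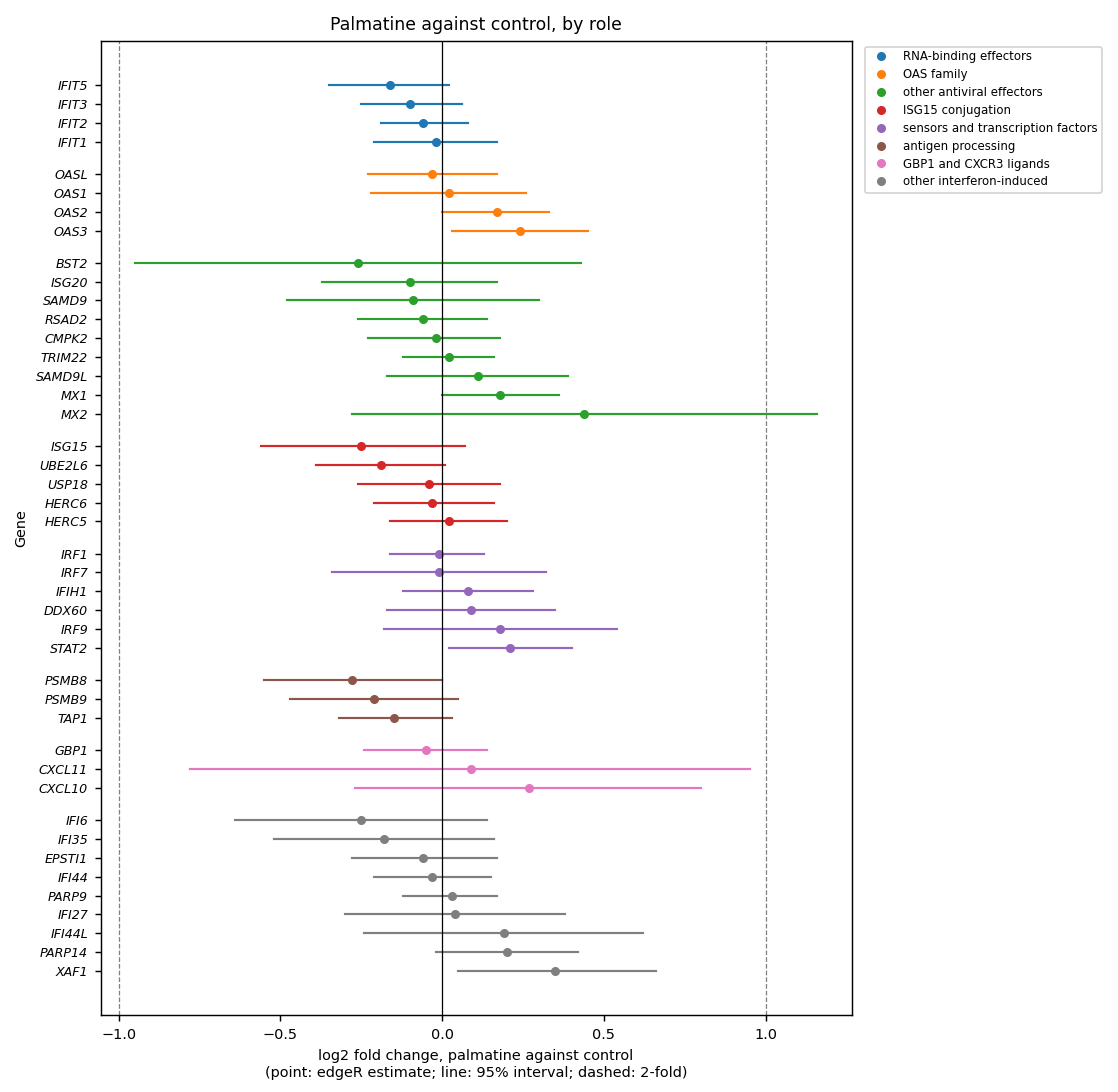
Log2 fold change of each interferon-stimulated gene, palmatine against control (point), with its 95% interval (line) from edgeR, in 8 colours by role; dashed lines mark a 2-fold change. Of the 43 intervals, that of MX2 crosses a dashed line, and the points lie between -0.28 and 0.44.

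The IFIT family, RNA-binding proteins that recognise foreign RNA ends, had 4 of 4 negative log2 fold changes, with a median of -0.08 and 0 called; with library size alone 2 of the 4 (IFIT1 and IFIT2) were positive. IFIT3 was at 215, 213 and 238 CPM in control and 211, 210 and 201 CPM with palmatine. Every palmatine library lay below every control library, though the nearest of them were at 211 and 213 CPM. The log2 fold change was -0.10 (SE 0.0683, adjusted p = 0.523 by edgeR). IFIT5, a relative that binds RNA with a free phosphate at its end, was at 67.0, 65.4 and 74.8 CPM in control and 60.9, 65.7 and 58.4 CPM with palmatine. Palmatine 2 lay inside the control range. Its log2 fold change was -0.16 (SE 0.0811, adjusted p = 0.455 by edgeR). IFIT2 was at 149, 148 and 153 CPM in control and 144, 141 and 148 CPM with palmatine, with -0.06 as log2 fold change (SE 0.061, adjusted p = 0.67 by edgeR). IFIT1, the founding member, was at 89.0 ± 5.66 CPM in control and 87.7 ± 7.67 CPM with palmatine (SD, n = 3 per group).

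The oligoadenylate synthetases sense duplex RNA and make the messenger that activates RNase L; OASL is a relative without that activity. Of these 4 genes, 3 had positive values, with a median log2 fold change of 0.09; with library size alone all 4 were positive, and with a trend on gene length removed from each library 2 were. OAS3, the largest of them and the member with the highest CPM, was at 306, 277 and 253 CPM in control and 360, 297 and 330 CPM with palmatine. The highest control library exceeded the lowest palmatine library. Its log2 fold change was 0.24 (SE 0.0941, adjusted p = 0.455 by edgeR). OAS2 was at 76.8, 76.6 and 71.8 CPM in control and 83.1, 79.1 and 90.4 CPM with palmatine, without overlap. Its log2 fold change was 0.17 (SE 0.0746, adjusted p = 0.455 by edgeR). OAS1, which lies beside OAS3, was at 48.2 ± 5.92 CPM in control and 49 ± 4.36 CPM with palmatine, and OASL at 158 ± 11.6 and 155 ± 15.1 CPM (SD, n = 3 per group).

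Among 9 further antiviral effectors, 4 values were positive and 5 negative, with a median log2 fold change of -0.02; with library size alone 6 were positive. MX1, a GTPase that blocks influenza and other viruses, was at 21.1, 21.6 and 22.8 CPM in control and 24.4, 25.4 and 24.4 CPM with palmatine. These groups did not overlap, and the log2 fold change was 0.18 (SE 0.0786, adjusted p = 0.455 by edgeR). RSAD2 (viperin), which makes a chain-terminating nucleotide, and its neighbour CMPK2, a mitochondrial nucleotide kinase, had log2 fold changes of -0.06 and -0.02. Neither group stood apart for them. The ubiquitin ligase TRIM22 was the steadiest of the group, at 101 ± 2.71 CPM in control and 103 ± 1.35 CPM with palmatine (SD, n = 3 per group). SAMD9, a poxvirus restriction factor, was at 259, 170 and 265 CPM in control and 235, 176 and 242 CPM with palmatine. The libraries numbered 2 were the lowest of their groups, and the spread inside each group was larger than the difference between groups. Its neighbour and paralogue SAMD9L, the helicase DDX60 and IFIH1 (MDA5, a sensor of long duplex RNA) were also lowest in the libraries numbered 2 in both groups, with log2 fold changes of 0.11, 0.09 and 0.08. In all 8 of 43 members had this pattern (18.6%, against 13.1% of tested genes), and 15 were lowest in the libraries numbered 1 in both groups (34.9%, against 22.7%) and 2 in those numbered 3 (4.65%, against 8.03%). The libraries numbered 1, 2 and 3 were the highest of both groups for 5, 7 and 5 members (11.6%, 16.3% and 11.6%, against 21.3%, 12.6% and 8.23%). BST2 (tetherin), which holds budding virions at the cell surface, and the exonuclease ISG20 were at 2.71 ± 0.969 and 6.04 ± 0.412 CPM in control and 2.27 ± 0.756 and 5.66 ± 0.199 CPM with palmatine (SD, n = 3 per group).

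The ISG15 pathway attaches ISG15 to proteins. Of its 5 genes, 4 had negative values, with a median log2 fold change of -0.04; with library size alone 2 did. ISG15 was at 35.3, 41.6 and 41.9 CPM in control and 28.3, 41.4 and 30.6 CPM with palmatine. Palmatine 2 was at the control level while palmatine 1 and 3 were below it, and the log2 fold change was -0.25 (SE 0.141, adjusted p = 0.463 by edgeR). UBE2L6 was at 127, 137 and 142 CPM in control and 107, 133 and 115 CPM with palmatine. Here too palmatine 2 lay inside the control range, and the log2 fold change was -0.19 (SE 0.0903, adjusted p = 0.455 by edgeR). The main ISG15 ligase HERC5 and its paralogue HERC6 were at 0.02 and -0.03, and USP18, which removes ISG15 and restrains the type I receptor, at -0.04.

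The sensors and transcription factors of the response had 4 positive and 2 negative values, with a median log2 fold change of 0.09; with library size alone all 6 were positive. STAT2, a subunit of ISGF3, was at 94.2, 89.6 and 78.2 CPM in control and 105, 95.3 and 103 CPM with palmatine. The groups did not overlap, though control 1 and palmatine 2 were nearly equal, and the log2 fold change was 0.21 (SE 0.0845, adjusted p = 0.455 by edgeR). IRF1, which mediates much of the interferon gamma response, was at 110, 110 and 106 CPM in control and 104, 111 and 108 CPM with palmatine, with a log2 fold change between -0.16 and 0.13 at 95%. IRF7, which amplifies interferon alpha, was at 18.9 ± 2.80 CPM in control and 18.8 ± 3.12 CPM with palmatine (SD, n = 3 per group). IRF9, the DNA-binding subunit of ISGF3, had few counts, at 4.39, 3.77 and 3.68 CPM in control and 3.86, 5.09 and 4.5 CPM with palmatine. Of its span in the deposited table, 76.6% is shared with a same-strand gene that the table does not name (ENSG00000259529), which held 66 counts in all against 380 for IRF9. Of the GENCODE exon bases of IRF9, 48.4% lie in same-strand exons of another gene. How reads lying in both genes were assigned is not stated, and the part this has in the level of IRF9 was not tested.

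Antigen processing was represented by PSMB8 and PSMB9, catalytic subunits of the immunoproteasome, and TAP1, a subunit of the peptide transporter of the endoplasmic reticulum. All 3 values were negative, with a median log2 fold change of -0.21 and 0 called, and all 3 stayed negative with library size alone. PSMB8 was at 93.5, 104 and 113 CPM in control and 74.0, 103 and 80.2 CPM with palmatine, or -0.28 as log2 fold change (SE 0.123, adjusted p = 0.455 by edgeR). PSMB9 was at 77.4, 91.7 and 91.0 CPM in control and 64.9, 87.1 and 73.2 CPM with palmatine, with -0.21 (SE 0.114, adjusted p = 0.459 by edgeR). For both, palmatine 2 lay among the controls. TAP1 was at 104, 103 and 103 CPM in control and 89.8, 103 and 88.0 CPM with palmatine, with -0.15 (SE 0.0771, adjusted p = 0.455 by edgeR). The control libraries were nearly identical for TAP1, and palmatine 2 equalled them. Without palmatine 2, the log2 fold changes of PSMB8, PSMB9 and TAP1 were -0.43, -0.33 and -0.22, with an unadjusted p under 0.05 and an adjusted p of 0.131 for each (edgeR). In that fit 13.5% of all tested genes were lower at the unadjusted threshold, against 4.69% with all 6 libraries. Without palmatine 1 they were -0.18, -0.11 and -0.12, with an adjusted p of 0.932 (edgeR). Without palmatine 3, all 3 stayed negative, with TAP1 at -0.10, and 0 members were lower at an unadjusted p under 0.05 (edgeR).

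GBP1, a guanylate-binding GTPase, and the chemokines CXCL10 and CXCL11, which attract T cells through CXCR3, are induced most strongly by interferon gamma. GBP1 was at 38.1 ± 2.5 CPM in control and 36.7 ± 2.22 CPM with palmatine. CXCL10 was at 2.59 ± 0.453 and 3.17 ± 0.823 CPM and CXCL11 at 0.888 ± 0.431 and 0.912 ± 0.0562 CPM (SD, n = 3 per group throughout). Both chemokines were low enough that their intervals, from -0.27 to 0.80 and from -0.78 to 0.95 on the log2 scale, do not bound a 1.5-fold difference.

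The remaining 9 members had 5 positive and 4 negative values and a median log2 fold change of 0.03; with library size alone 7 were positive. XAF1, an antagonist of the apoptosis inhibitor XIAP, had the smallest unadjusted p of all members (0.0276). It was at 7.93, 6.57 and 8.39 CPM in control and 8.85, 9.33 and 11 CPM with palmatine, without overlap, and its log2 fold change was 0.35 (SE 0.136, adjusted p = 0.455 by edgeR). IFI44 was at 73.2, 75.9 and 86.3 CPM in control and 75.8, 80.4 and 75.0 CPM with palmatine. The groups overlapped, with -0.03 as log2 fold change (SE 0.08, adjusted p = 0.893 by edgeR). PARP14, a mono-ADP-ribosyltransferase, and its relative PARP9 were at 221 ± 16.8 and 141 ± 5.31 CPM in control and 253 ± 30.9 and 144 ± 2.49 CPM with palmatine. IFI35, a partner of the signalling protein NMI, and EPSTI1 had log2 fold changes of -0.18 and -0.06, and IFI44L one of 0.19. The small membrane proteins IFI6 and IFI27 were at 12.6 ± 2.41 and 4.10 ± 0.528 CPM in control and 10.6 ± 1.99 and 4.19 ± 0.212 CPM with palmatine (SD, n = 3 per group).

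Which library stood out differed from gene to gene. Control 3 was the highest library for 16 of 43 members, and the other libraries for between 3 and 8. Control 1 and palmatine 1 were the lowest for 9 members each and palmatine 2 for 3. Shares over all tested genes are not given for these counts, so they do not set the members apart from other genes. The median of the members' centred log2 levels lay between -0.03 and 0.05 in each of the 6 libraries and was highest in control 3. Without control 3 the median log2 fold change of the members was 0.02 in place of -0.02, and 24 in place of 19 were positive. Antigen processing genes spread most among the roles with several well-counted members, with medians of 0.00, 0.15 and 0.18 in control and -0.31, 0.12 and -0.16 in palmatine libraries.

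**Figure D4:**
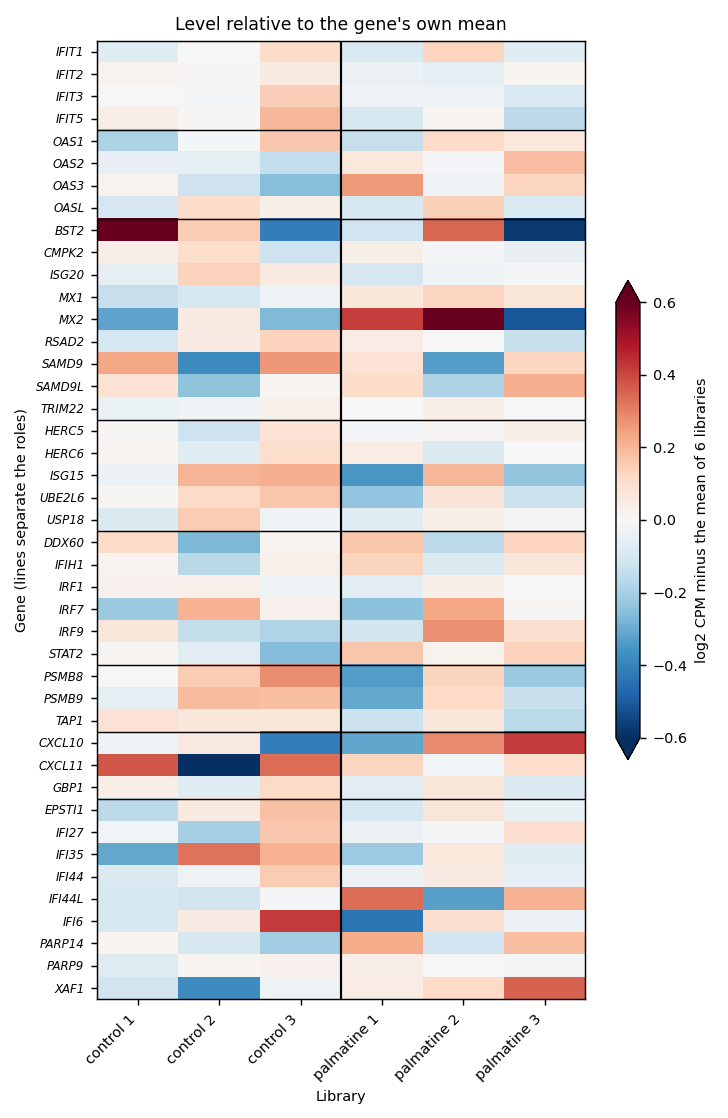
Level of each interferon-stimulated gene in each library as log2 CPM minus the gene's mean over the 6 libraries (red higher, blue lower, colour scale clipped at 0.6 either way), grouped by role; the vertical line separates 3 control from 3 palmatine libraries. Palmatine 1 and 3 are blue and palmatine 2 red for ISG15, UBE2L6, PSMB8 and PSMB9, and SAMD9 is blue in the libraries numbered 2 of both groups.

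The direction of the small differences went with gene length in the deposited table, for the members as for all genes. The 19 members with positive values had a median length of 9310 bases in the deposited table, and the 24 with negative values one of 4379.5 bases; over all tested genes the medians were 6894.5 and 4201.5 bases. Of 10 members over 10000 bases by the deposited length, 9 were positive, with a median log2 fold change of 0.17, beside 0.11 for all genes of that class. Among these 10 are MX1 and OAS1, at 17984 and 13021 bases in the deposited table but 3470 and 2416 bases by the longest transcript. Of 8 members under 2500 bases, 2 were positive, with a median of -0.18 beside -0.16. A smooth trend of level on the deposited length was then removed from each library. The log2 fold change of OAS3 went from 0.24 to 0.11, that of OAS2 from 0.17 to 0.06, that of MX1 from 0.18 to 0.05 and that of STAT2 from 0.21 to 0.13. On the negative side, ISG15 went from -0.25 to -0.03, IFI6 from -0.25 to -0.04 and UBE2L6 from -0.19 to -0.08. XAF1 moved less, from 0.35 to 0.31, as did PSMB8, from -0.28 to -0.24. PSMB9 went from -0.21 to -0.17 and IFIT5 from -0.16 to -0.15, while TAP1 stayed at -0.15. Other values grew, with CXCL10 going from 0.27 to 0.45, CXCL11 from 0.09 to 0.22 and IRF1 from -0.01 to -0.12, and 6 members changed sign. In that fit XAF1 and PSMB8 were the members with an unadjusted p under 0.05, and their adjusted p was 0.467 for both (edgeR).

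**Figure D5:**
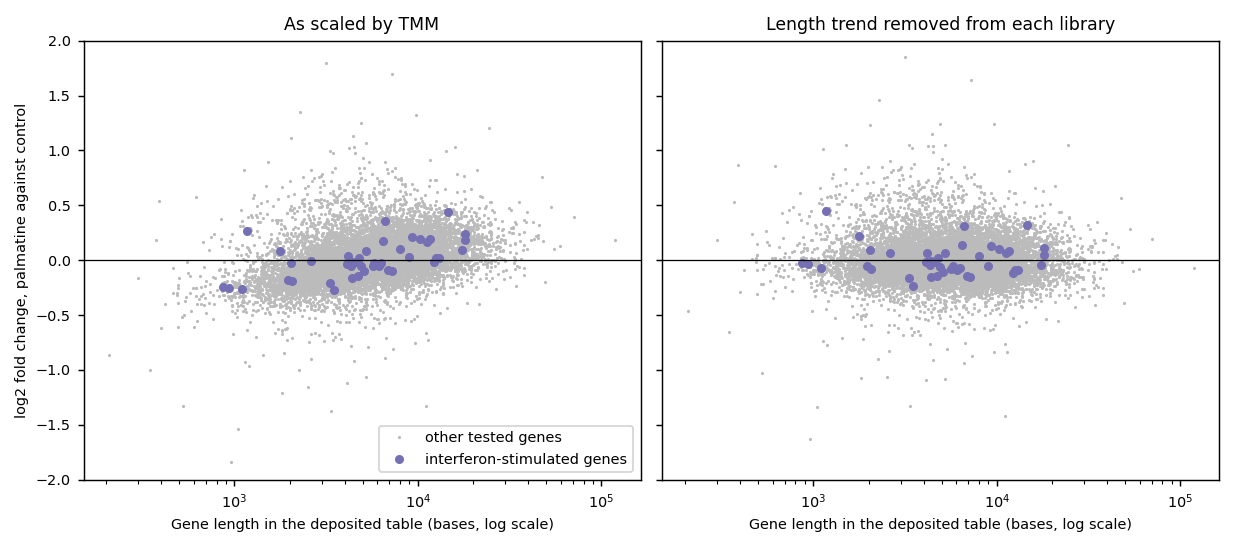
Log2 fold change, palmatine against control, against gene length in the deposited table (bases, log axis) for the 43 interferon-stimulated genes (purple) and the other tested genes (grey), as scaled by TMM (left) and after a length trend was removed from each library (right). On the left 9 of the 10 members over 10000 bases lie above 0; on the right OAS3, one of them, is at 0.11 instead of 0.24.

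Fold changes were set beside the promoter letters. The 24 members with ISRE letters had a median log2 fold change of -0.04, with 10 positive and 14 negative, and the 12 without them one of 0.00, with 6 of each sign. The median level was 50.3 CPM with the letters and 27.4 CPM without. The 13 members with GAS letters had a median log2 fold change of 0.02, and the 23 without them -0.03. These are descriptions of the windows, and the promoters of 7 members were not analysed here.

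The ligands that start the response were scarcely transcribed. Of 10 interferon genes, 1 was tested: IFNE, an epithelial type I interferon, at 3.09 ± 0.441 CPM in control and 2.79 ± 0.157 CPM with palmatine (SD, n = 3 per group; log2 fold change -0.14, adjusted p = 0.72, edgeR). IFNK, the interferon typical of keratinocytes, had 8 counts in all 6 libraries together, IFNL1 had 4, IFNA1 had 3 and IFNB1 had 1. IFNA2, IFNG, IFNL2 and IFNL3 had 0 counts, which allows a level of up to 0.0333 CPM over the 6 libraries, counting error only. A difference between groups was not detectable at these counts.

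The receptors and the signalling chain were present, and none of their genes passed the threshold. Of 6 tested receptor genes, 3 had positive and 3 negative values, with a median log2 fold change of -0.01, and of 10 tested signalling genes 6 were positive, with a median of 0.09. JAK1 was at 146 ± 6.52 CPM in control and 165 ± 13.8 CPM with palmatine (SD, n = 3 per group), which is 0.18 as log2 fold change. TYK2 and JAK2 had values of 0.16 and 0.21, and IRF3, which is activated downstream of nucleic acid sensors, one of -0.08. IFNAR1, a chain of the type I receptor, had a value of 0.05, and the interferon gamma receptor chains IFNGR1, the receptor gene with the highest FPKM, and IFNGR2 had -0.07 and -0.17.

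IFNAR2, the other chain of the type I receptor, was at 2.16, 2.47 and 2.24 CPM in control and 3.42, 2.87 and 3.50 CPM with palmatine. The groups did not overlap, and the log2 fold change was 0.51 (SE 0.171, adjusted p = 0.455 by edgeR). IL10RB, a chain of the type III receptor, had a value of 0.56 (SE 0.351, adjusted p = 0.485 by edgeR). IFNAR2 and IL10RB share 59.3% and 68.3% of their spans with an unnamed same-strand gene of the table (ENSG00000249624) that was listed at 0 counts. Of their GENCODE exon bases, 44.2% and 38.1% lie in same-strand exons of another gene. The levels of IFNAR2 and IL10RB carry the same doubt as that of IRF9. The RNA sensor RIG-I (listed as DDX58), named here after its values were seen, was at 1.44 ± 0.215 CPM in control and 1.84 ± 0.253 CPM with palmatine (SD, n = 3 per group), and 100% of its span is shared with another unnamed gene at 0 counts (ENSG00000288684). TAP2 and IFITM1, likewise named after their values were seen, also share 100% of their spans with such genes and held 6050 and 3993 counts. Spans include introns. Of the GENCODE exon bases of TAP2 and IFITM1, 32.3% and 32.5% lie in same-strand exons of another gene, which for IFITM1 is IFITM2. For RIG-I this share was 0%. The counts of these genes therefore do not show how shared reads were assigned.

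Of 11 tested sensors of foreign nucleic acid and their partners, 8 had positive values, with a median log2 fold change of 0.03 and 0 called. MAVS, the mitochondrial adaptor of the RNA sensors, was at 298 ± 45.3 CPM in control and 351 ± 33.8 CPM with palmatine (SD, n = 3 per group; log2 fold change 0.23). ADAR, which edits duplex RNA, and TRIM25, a ubiquitin ligase that acts on RIG-I, had values of 0.20 and 0.13.

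A further list of 43 interferon-induced genes outside the set, of which 41 were tested, had 21 positive and 20 negative values, a median log2 fold change of 0.01 and 0 called. At an unadjusted p under 0.05, 3 were higher and 4 lower, where 5.13% and 4.69% of all tested genes were. PSMB10, the remaining catalytic subunit of the immunoproteasome, was at 26.9, 33.2 and 38.4 CPM in control and 18.7, 25.7 and 22.6 CPM with palmatine. All palmatine libraries lay below the lowest control, and the log2 fold change was -0.56 (SE 0.148, adjusted p = 0.455 by edgeR). However, 64.1% of the span of PSMB10 is shared with an unnamed same-strand gene of 189 counts. Of its GENCODE exon bases, 34.8% lie in same-strand exons of another gene. RTP4, a receptor-transporting protein, had a value of -0.44 ± 0.132 and LAMP3, a lysosomal membrane protein, one of 0.34 (SE 0.128, adjusted p = 0.455 for both by edgeR). B2M, the light chain of class I molecules and the list's most abundant transcript per length, was at 2155, 2551 and 2709 CPM in control and 1812, 2341 and 1978 CPM with palmatine. The groups overlapped, with a log2 fold change of -0.27. IFITM3, which blocks viral entry, had a value of -0.05.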

How the data were processed

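Per the file headers, the table the authors deposited holds raw counts and FPKM of every gene in 6 libraries. Per the submitters' processing notes, HISAT2 2.1.0 and HTSeq 0.9.1 were used. The sources used here do not state the build, annotation release or counting mode. The deposited FPKM equalled count per length per total count for 100% of values above 0 (relative tolerance 1e-05). The control group came from the sample titles and the palmatine group from the treatment label.

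From the counts, genes were kept with filterByExpr (minimum count 10) and scaled by TMM (factors 0.97 to 1.04). The comparison of palmatine with control used edgeR 4.0.16 (R 4.3.3): a two-sided quasi-likelihood test, robust dispersions, no covariates, and Benjamini-Hochberg adjustment over all 12356 tested genes and a threshold of 0.05. Levels are CPM on TMM-scaled library sizes. Standard errors and 95% intervals come from the F statistic.

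The procedure was tested on simulated counts. These were drawn independently for each gene and library, without a length trend or deviations shared across genes. They therefore do not show how the procedure behaves where those are present. Members, lists and tests were chosen with earlier results of these data known. Full statistics were given for the 5 members with the smallest p per direction and the 5 with the highest mean FPKM, and values for up to 3 genes per pathway list with the smallest p and 2 with the highest FPKM; other named genes were chosen after their values were seen. One gene of the signalling list is not reported here. Within each group, libraries differed beyond counting noise in every pair (chi-square per degree of freedom at least 3.24). The 17 alternatives used RLE or no scaling factors, DESeq2 1.42.0, limma 3.58.1 (voom, or log2(FPKM + 1) and log2(FPKM + 0.1)), other count filters (none, or minimum count 30), a replicate block, a length trend removed (loess, span 0.3), mitochondrial genes left out, and each library left out. The protocol in the labels describes a dUTP step but not whether counting used strand; 12 members share exon bases with a GENCODE 29 gene on the opposite strand, among them PSMB8, TAP1 and XAF1, and without strand the reads there cannot be told apart.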

Additional observations from a re-analysis of the deposited data

How the results depend on the processing

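Under all 17 alternatives 0 of the tested interferon-stimulated genes were called higher and 0 lower; the lowest adjusted p of a member under any was 0.131. With a minimum count of 30, 41 of the 43 were tested. Counted at an unadjusted p below 0.05, members higher and lower numbered 4 and 0 in edgeR, 3 and 1 in DESeq2 and 4 and 1 in limma-voom, beside 5.13% and 4.69%, 4.24% and 3.98%, and 5.34% and 4.99% of all tested genes. Leaving out palmatine replicate 2 gave 6 and 6, where 12.5% and 13.5% of all tested genes were higher and lower. Leaving out control replicate 1 gave 4 and 4 (11.7% and 10.2%), control replicate 2 gave 0 and 0 (2.29% and 2.06%), control replicate 3 gave 2 and 0 (1.59% and 1.33%), palmatine replicate 1 gave 2 and 0 (1.38% and 1.04%) and palmatine replicate 3 gave 1 and 0 (1.56% and 1.32%). The cause was not tested. The median log2 fold change of the members, -0.02, was 0.04 with library size alone and with log2(FPKM + 1) and 0.05 with log2(FPKM + 0.1), where the median of all genes was 0.06, 0.04 and 0.06. Without a library it ran from -0.03 to 0.02, the latter without control replicate 3. XAF1, OAS3, STAT2 and MX1 stayed positive, and PSMB8, PSMB9, TAP1, UBE2L6 and IFIT5 negative, under every alternative; with library size alone 12 members changed sign, from values between -0.06 and -0.01 to values between 0.01 and 0.05. The replicate block left 0 called; 5 higher and 4 lower members had an unadjusted p below 0.05, as had 10.3% and 10% of all tested genes. Deviations of same-numbered libraries correlated at 0.399, 0.178 and -0.0963 for numbers 1, 2 and 3, and libraries 3 did not match each other best, so the numbers were not taken as pairs. Depth limits MX2, CXCL10, CXCL11, BST2 and the interferon genes.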
